A study of Mus musculus with 4 samples.

Results

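Tumour fibroblasts are recognised by a small set of surface and state markers, and 10 of them (Fap, Pdpn, Pdgfra, Thy1, S100a4, Vim, Lrrc15, Spp1, Tmem119 and Cav1) were followed here among the 22456 genes measured. They were taken by name, matched to Ensembl identifiers through the GENCODE M21 annotation, and all 10 were found. The libraries are bulk RNA from the mesenchymal fraction of mammary tumours that 4T1 cells, a transplantable carcinoma line of the Balb/c strain, had formed 8 days after injection into the fat pad of Balb/cAnN mice. For the GSK group (2 libraries) the 4T1 cells were pre-treated with 5 µM the compound GSK269962A over 5 days. For the DMSO group (2 libraries) they were pre-treated with the solvent DMSO. The fibroblasts of both groups are host cells of mice whose own treatment with the compound no label mentions, and their age and sex are not given. The fibroblasts were what remained after cells bound by antibodies to CD45, CD31, CD326 or human CD2 had been held back on a magnetic column, with a second passage over a new column. Whether the 2 libraries of a group were made from different mice is not stated, so a p-value here reflects the spread of these samples, which may be technical.

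The markers stand for different parts of a fibroblast. Fap is a serine protease of the cell surface, Pdpn (podoplanin) a mucin-like glycoprotein that binds the platelet receptor CLEC-2 and, inside the cell, the ezrin and moesin linkers to actin. Pdgfra is a receptor tyrosine kinase for platelet-derived growth factors, Thy1 (CD90) a lipid-anchored immunoglobulin-family protein, and Lrrc15 a leucine-rich repeat membrane protein that marks TGF-beta-driven myofibroblasts of mouse and human tumours. Tmem119 is a membrane protein of osteoblast precursors and microglia, and Cav1 (caveolin) is the coat protein of caveolae, the small pits of the plasma membrane. Vim (vimentin) is the intermediate filament protein of mesenchymal cells, S100a4 (fibroblast-specific protein) a calcium-binding protein of the cytoplasm, and Spp1 (osteopontin) a secreted phosphoprotein that binds integrins and CD44. None of them belongs to fibroblasts alone: macrophages make S100a4 and Spp1, T cells Thy1, lymphatic endothelium Pdpn and blood endothelium Cav1.

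The sequences just before the start sites of 5 markers are given because these are the markers whose GSK and DMSO libraries did not overlap, whose changes were over 0.3 in size and that RefSeq's promoter table (GRCm38.p6) holds. Each is the 250 bases before the start, 5′ to 3′ on the strand of the gene. Both strands were searched for TGANTCA (AP-1), TATAAA (the TATA box), GGAATG (TEAD), TGTGGT (RUNX), GGGCGG (the GC box of SP and KLF factors), the CArG box and the NF-kB motif, and capitals mark the matches. The table held windows for 7 of the 10 markers, and Tmem119, Fap and Thy1 are named only.
Lrrc15 (chr16:30283255-30283504, minus strand): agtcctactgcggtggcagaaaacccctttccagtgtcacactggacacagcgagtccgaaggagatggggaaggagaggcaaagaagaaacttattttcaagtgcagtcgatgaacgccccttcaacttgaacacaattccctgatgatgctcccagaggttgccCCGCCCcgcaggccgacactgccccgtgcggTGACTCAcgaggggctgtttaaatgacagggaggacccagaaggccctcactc
Spp1 (chr5:104434861-104435110, plus strand): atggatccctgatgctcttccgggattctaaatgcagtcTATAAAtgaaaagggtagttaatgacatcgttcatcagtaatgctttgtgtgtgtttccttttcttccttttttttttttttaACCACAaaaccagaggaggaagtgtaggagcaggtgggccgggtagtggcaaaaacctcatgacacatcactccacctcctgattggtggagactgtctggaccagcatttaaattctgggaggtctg
Pdpn (chr4:143299565-143299814, minus strand): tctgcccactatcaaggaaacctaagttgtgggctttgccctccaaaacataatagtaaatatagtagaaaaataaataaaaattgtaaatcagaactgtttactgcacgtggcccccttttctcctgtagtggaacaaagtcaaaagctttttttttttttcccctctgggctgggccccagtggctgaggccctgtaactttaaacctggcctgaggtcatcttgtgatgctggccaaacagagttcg
Cav1 (chr6:17306085-17306334, plus strand): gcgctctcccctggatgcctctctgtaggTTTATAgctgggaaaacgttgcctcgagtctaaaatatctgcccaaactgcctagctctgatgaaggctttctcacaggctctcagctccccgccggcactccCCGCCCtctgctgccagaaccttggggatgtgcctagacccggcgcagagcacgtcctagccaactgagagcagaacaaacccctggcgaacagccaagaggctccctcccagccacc
S100a4 (chr3:90603520-90603769, plus strand): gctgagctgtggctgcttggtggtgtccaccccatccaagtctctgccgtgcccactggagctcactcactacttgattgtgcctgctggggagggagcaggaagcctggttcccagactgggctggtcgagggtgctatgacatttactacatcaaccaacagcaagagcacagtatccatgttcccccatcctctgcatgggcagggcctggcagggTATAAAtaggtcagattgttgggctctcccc
Lrrc15 held an AP-1 match that ended 47 bases before the start and a GC box 79 bases before it. Spp1 had a RUNX match at 123 bases and a TATAAA at 206 bases, and the second windows of Spp1 and Cav1, of starts further inside these genes, held no match. S100a4 had a TATA box 26 bases before its start, and the first Cav1 window a TATAAA on the other strand at 216 bases and a GC box at 113 bases. The Pdpn window held none of these letters. In the 5 windows no match overlapped another. Of all 32807 promoter windows of that length, 6.75% held the AP-1 letters, 12.4% TATAAA, 12.6% the TEAD letters, 14.04% the RUNX letters, 32.7% the GC box, 1.47% a CArG box and 3.90% the NF-kB motif. These matches are descriptions of letters, with no measurement of binding.

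All values are log2 expression as normalised by the authors, from -1.035 to 20.58. No read counts were used here, so the depth behind each library is unknown. Genes under the filter on low values hardly vary on this scale, with a median range over the 4 libraries of 0.0178, against 0.113 in tested genes, and whether the scale compresses their differences was not tested. Library medians lay between 6.15 and 6.16, and the median difference between the replicates of tested genes was 0.0496 in GSK and 0.0462 in DMSO. Of the 14548 genes tested, 41 (0.282%) passed limma's adjusted threshold of 0.05, and that count moved to 7 without DMSO library 1, to 194 without DMSO library 2 and to 70 without GSK library 1. With 2 libraries against 2, an exact permutation test of a single gene cannot go below a two-sided p of 0.333, so only the fit across all genes was used. The fibroblast label was borne by its markers: 10 of 10 fibroblast identity genes passed the filter on low values, with a median level of 14.92 (log2), and Col1a1, a collagen I gene, was the highest at 20.51. Of the epithelial list 3 of 9 measured genes passed, and Epcam, which encodes the depleted CD326, stood at 0.32. The highest gene was Krt19 at 8.82 in the epithelial list, Cd3e at 8.62 in the T cell list, Tek at 7.64 in blood endothelium and Flt4 at 6.42 in lymphatic endothelium. It was Rgs5 at 12.52 in the pericyte list, Fabp4 at 9.57 in the adipocyte list and Mmp8 at 5.23 in the granulocyte list.

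All 10 markers were expressed far above the filter of 3.32 (log2), and their levels per kilobase of exon differed widely. Spp1 was the highest, at 16.12 ± 0.24 (log2 level per kilobase, mean ± SD over 4 libraries), and ranked 5 among 14516 tested genes with a known exon length. Vim followed at 13.93 ± 0.08 and Thy1 at 13.06 ± 0.06, and the ranges of these top 3 did not overlap. Lrrc15 at 12.43 ± 0.31, Pdpn at 11.76 ± 0.26 and Tmem119 at 11.57 ± 0.28 formed a middle group in which each range overlapped that of its neighbour. Pdgfra at 10.09 ± 0.06, S100a4 at 9.95 ± 0.41 and Cav1 at 9.31 ± 0.42 came next, again with overlapping neighbours. Fap, whose protein is a common tumour fibroblast antigen, was the lowest of the 10 at 8.26 ± 0.12, and still lay above 80.4% of the genes ranked. The order was the same when the longest transcript replaced the exon union as the length, although the level of Fap then was 9.24.

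**Figure D1:**
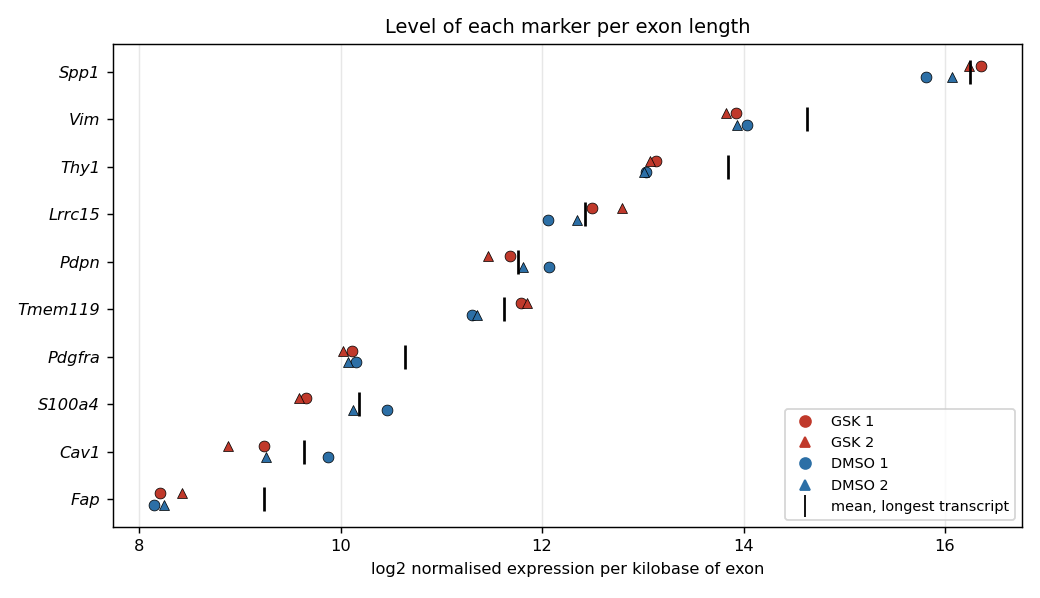
Level of each marker as log2 normalised expression per kilobase of exon (x axis) in the 2 GSK libraries (red) and the 2 DMSO libraries (blue), with a black tick for the mean when the longest transcript is taken as the length. Spp1 stands alone at the top with a mean of 16.12 and Fap is lowest at 8.26.

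The comparison of GSK with DMSO addresses fibroblast activation in tumours of pre-treated cancer cells, and for these markers it gave a divided picture. Tmem119 was 1.40-fold higher in GSK and was the only one of the 10 markers that passed the test over all genes, where 0.282% of tested genes passed in either direction, 0.151% higher and 0.131% lower. Lrrc15 and Spp1 had positive estimates of 0.44 and 0.36 (log2), and S100a4, Cav1 and Pdpn had negative estimates of -0.67, -0.51 and -0.37, none of them past the adjusted threshold. Fap, Pdgfra, Thy1 and Vim had estimates of at most 0.12 in size. In 8 of the 10 markers the groups did not overlap, against 48.6% of all tested genes. GSK was above DMSO in 4 of them (24.1% of all tested genes) and below it in 4 (24.5% of all tested genes). At an unadjusted p under 0.05 stood 6 of the 10, against 16.02% of all tested genes. The markers were chosen with earlier results of these data known, so these counts are descriptions. In bulk RNA, fewer cells of a type and less RNA per cell cannot be told apart.

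**Figure D2:**
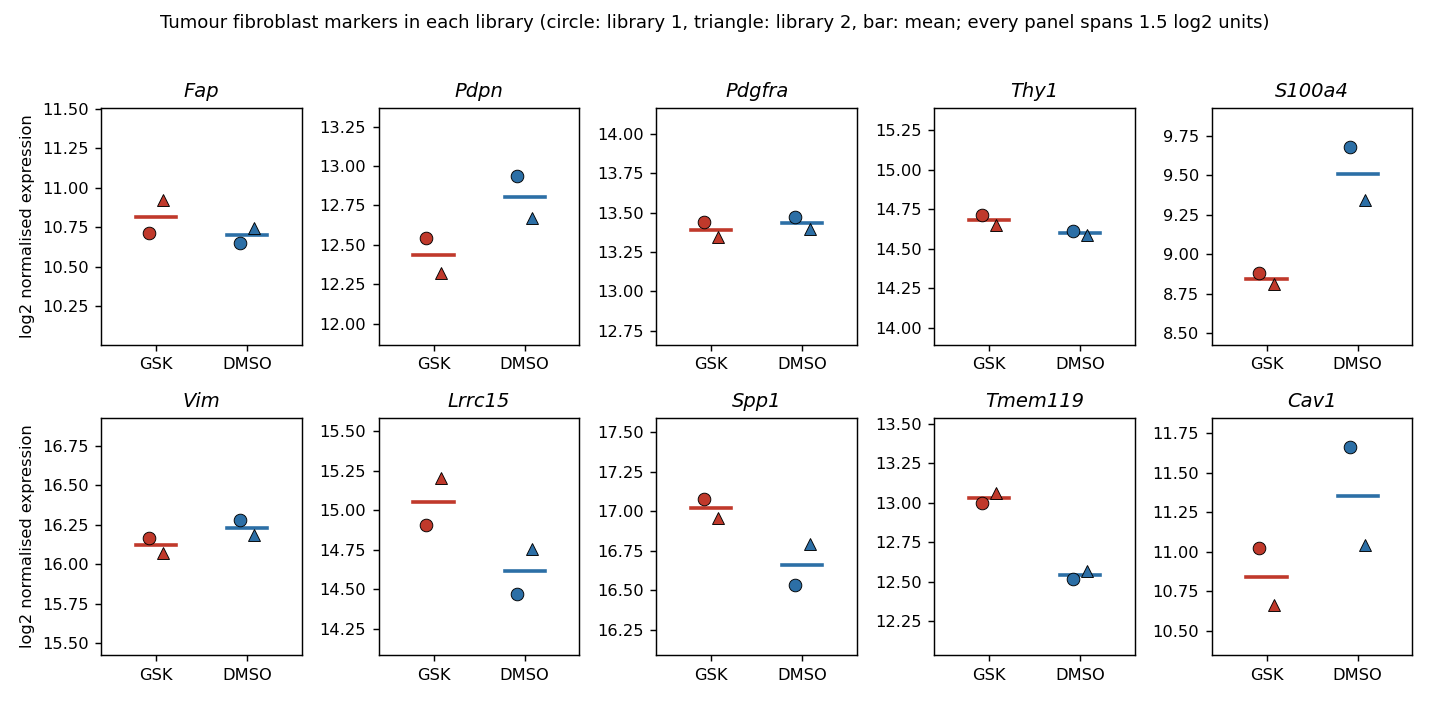
Log2 normalised expression (y axis, 1.5 units in every panel) of the 10 markers in GSK libraries (red, left) and DMSO libraries (blue, right), with circles for library 1, triangles for library 2 and bars for group means. Tmem119 shows tight pairs 0.49 apart, whereas in Cav1 the lower DMSO library, at 11.04, meets the higher GSK library, at 11.02.

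Tmem119 (ENSMUSG00000054675, GRCm38 chromosome 5, 113793729 to 113800516, minus strand) had 12.9999 and 13.06 (log2) in GSK libraries 1 and 2, against 12.52 and 12.57 in DMSO libraries 1 and 2. The groups were clearly apart, since the replicates differed by 0.061 in GSK and by 0.0497 in DMSO. The change was 0.49 ± 0.05 (log2, limma SE), with a 95% interval of 0.36 to 0.61 and a limma adjusted p of 0.0366. The estimate stayed between 0.46 and 0.54 in the alternatives run, but the call was lost in 4 of 12. Its adjusted p was 0.149 when DMSO library 1 was left out, 0.0759 when GSK library 2 was, 0.0531 when the variance prior had no trend and 0.222 when low genes were kept. Of 6 other microglial genes 2 passed the filter on low values, P2ry12 was at -0.995 and Sall1 at 0.59. The summed level of the 6 was 10.36 to 10.42 in GSK and 10.31 to 10.33 in DMSO. Of the osteoblast genes, Runx2, a transcription factor of the bone lineage that fibroblasts also express, was at 10.82 and Sp7 at 2.15, and the summed level was 10.88 to 10.94 in GSK and 10.96 to 11.02 in DMSO. That sum followed Runx2, whose estimate was -0.093, whereas the other 3 of 4 tested osteoblast genes had positive estimates. One of these, Ibsp (bone sialoprotein), had 5.35 and 5.33 in GSK and 5.17 and 5.16 in DMSO, both GSK libraries being higher as in Tmem119 (change 0.17 ± 0.03, limma adjusted p = 0.0840).

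Lrrc15 (ENSMUSG00000052316, chromosome 16, 30269302 to 30283256, minus strand), whose promoter window carried the AP-1 letters, had 14.90 and 15.20 (log2) in GSK, against 14.47 and 14.76 in DMSO. Both GSK libraries were above both DMSO libraries, with replicates about 0.30 apart in GSK and 0.29 apart in DMSO. The change was 0.44 ± 0.13 (95% interval 0.12 to 0.76, limma adjusted p = 0.191), and it ran from 0.29 to 0.59 as single libraries were left out. A larger change in size was seen in 1.11% of tested genes. Lrrc15 is used as a myofibroblast marker, and none of 14 other myofibroblast and matrix state genes passed in limma. At an unadjusted p under 0.05 stood 2 of the 14, against 16.02% of all tested genes. Their median change was 0.14, against -0.00074 over all tested genes. Leaving out DMSO library 1 brought that median to 0.047, leaving out GSK library 2 to 0.034 and quantile normalisation to 0.052. The lowest adjusted p of the list was that of Cthrc1, a secreted collagen triple helix repeat protein, with 12.34 and 12.45 in GSK and 12.76 and 12.67 in DMSO, both GSK libraries being lower (change -0.32 ± 0.06, limma adjusted p = 0.0874). Acta2, smooth muscle actin, had 14.98 ± 0.10 in GSK and 14.83 ± 0.21 in DMSO (mean ± SD, n = 2 each), and Postn, the matrix protein periostin, 16.81 ± 0.15 in GSK and 16.66 ± 0.08 in DMSO. Neither passed (limma adjusted p = 0.552 and 0.553).

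Spp1 (ENSMUSG00000029304, chromosome 5, 104435118 to 104441050, plus strand) had 17.08 and 16.96 (log2) in GSK, against 16.53 and 16.79 in DMSO. The GSK pair was higher, although GSK library 2 and DMSO library 2 were 0.17 apart, less than the 0.26 between the DMSO replicates. The change was 0.36 ± 0.13 (95% interval 0.06 to 0.66, limma adjusted p = 0.242) and 0.23 without DMSO library 1. Macrophages are another source of osteopontin, and here 5 of 12 macrophage genes passed the filter, Adgre1 (the F4/80 antigen) was at 0.79, and the summed level of the list was 10.32 to 10.35 in GSK and 10.38 to 10.41 in DMSO. The pan-leukocyte list had a higher sum in both GSK libraries, at 11.21 to 11.85 in GSK and 10.54 to 10.77 in DMSO, carried by the tetraspanin gene Cd53, while Ptprc, which encodes the depleted CD45, was at 3.81. Its part in the Spp1 values was not tested.

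Receptors and relatives of Spp1 were set as a list beside it. The list was written with earlier results of these data known, so its counts are descriptions and not tests. Of 9 tested osteopontin receptor and bone glycoprotein genes 8 had a positive estimate, against 7199 of all 14548 tested genes, and none passed in limma. At an unadjusted p under 0.05 stood 5 of the 9, against 16.02% of all tested genes. The integrin chain Itgb5 was at 0.34 (limma adjusted p = 0.0688) and Itgav, its partner, at 0.06. Cd44, the hyaluronan receptor that also binds osteopontin, was the single negative one, with 12.59 and 12.51 in GSK and 13.04 and 12.83 in DMSO, a change of -0.38 ± 0.08 (limma adjusted p = 0.101). Its GSK libraries lay below its DMSO libraries, the reverse of Spp1.

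S100a4 (ENSMUSG00000001020, chromosome 3, 90603771 to 90606045, plus strand) had 8.88 and 8.81 (log2) in GSK, against 9.68 and 9.34 in DMSO. The GSK pair was tight and below both DMSO libraries, and only 0.275% of tested genes had a larger change in size. The change was -0.67 ± 0.11 (95% interval -0.92 to -0.41), with a limma adjusted p of 0.0618, which misses the threshold. Without DMSO library 2 it was -0.84 and passed (adjusted p = 0.00907), and without DMSO library 1 it was -0.50 (adjusted p = 0.0876). S100a4 shares 302 bases of exon with Gm42674, an annotated gene on the same strand, which was listed at 1.001. Summed with it, the change of S100a4 was -0.67 as before. S100a4 itself had a mean of 9.18, so a gene that low could hardly move the sum. How reads of the shared bases were assigned was not tested.

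The other S100 genes had smaller estimates than S100a4. Of 8 other tested members none passed in limma, with 3 at an unadjusted p under 0.05 (against 16.02% of all tested genes). The median change was -0.07, or -0.036 after quantile normalisation. S100a6 (calcyclin) had 13.25 ± 0.02 in GSK and 13.36 ± 0.05 in DMSO, and S100a10, the light chain of the annexin II complex, had 11.30 ± 0.06 in GSK and 11.58 ± 0.20 in DMSO (change -0.28, limma adjusted p = 0.213). The S100a8 and S100a9 genes, of granulocytes, were at 0.80 and 1.17. The epithelial and carcinoma list was also lower in GSK in its sum, at 8.73 to 8.93 in GSK and 9.07 to 9.13 in DMSO, through Krt19, and carcinoma cells can also express S100a4. The part of that list in the S100a4 values was not tested.

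Cav1 (ENSMUSG00000007655, chromosome 6, 17306335 to 17341452, plus strand) had 11.02 and 10.66 (log2) in GSK, against 11.66 and 11.04 in DMSO. It was the most variable of the 10, with replicates 0.36 apart in GSK and 0.62 apart in DMSO, and GSK library 1 and DMSO library 2 nearly met. The change was -0.51 ± 0.21 (95% interval -1.02 to -0.01, limma adjusted p = 0.306). It depended on the libraries used, at -0.20 without DMSO library 1 and -0.33 without GSK library 2, and at -0.82 without DMSO library 2, where it passed (adjusted p = 0.0489). Blood endothelium is rich in caveolae, and of its 8 genes 5 passed the filter, Cldn5 was at 0.30, and the summed level was 8.33 to 8.42 in GSK and 8.40 to 8.47 in DMSO.

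Other genes of caveolae gave mixed values. Of 9 tested none passed in limma, with 2 at an unadjusted p under 0.05 (against 16.02% of all tested genes). The median change was -0.04, and leaving out DMSO library 2 gave a median of -0.012, or -0.013 where GSK library 2 was dropped. Cavin1, the cytoplasmic coat protein that caveolae need, had 12.70 and 12.52 in GSK and 13.09 and 12.78 in DMSO, a change of -0.33 ± 0.11 (limma adjusted p = 0.231). As with Cav1, both GSK libraries were below both DMSO libraries. Cav2, the partner caveolin, had 6.90 ± 0.17 in GSK and 7.05 ± 0.15 in DMSO, with overlapping groups, and Ehd2, an ATPase at the neck of caveolae, had 13.11 ± 0.05 in GSK and 13.08 ± 0.03 in DMSO.

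Pdpn (ENSMUSG00000028583, chromosome 4, 143267431 to 143299564, minus strand) had 12.55 and 12.32 (log2) in GSK, against 12.93 and 12.67 in DMSO. The GSK libraries were the lower pair, and GSK library 1 and DMSO library 2 were 0.13 apart, less than either pair of replicates. The change was -0.37 ± 0.11 (95% interval -0.63 to -0.11, limma adjusted p = 0.182), between -0.50 and -0.24 as single libraries were left out. Lymphatic endothelium also carries podoplanin: Lyve1 was at 0.33 and Prox1 at 4.48, and the summed level of 5 lymphatic genes was 7.08 to 7.26 in GSK and 7.04 in both DMSO libraries, with 2 of the 4 tested genes at positive estimates. Among 7 tested podoplanin partners none passed in limma, with 2 at an unadjusted p under 0.05 (against 16.02% of all tested genes). Ezr (ezrin) had 8.04 ± 0.05 in GSK and 8.34 ± 0.10 in DMSO (change -0.30, limma adjusted p = 0.106), while Msn (moesin), a linker of the same kind, had 13.91 ± 0.05 in GSK and 13.81 ± 0.04 in DMSO. Cd44, which also binds podoplanin, is the gene given above at -0.38.

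The remaining 4 markers, Fap, Pdgfra, Thy1 and Vim, had group differences of at most 0.12 in size. Fap (ENSMUSG00000000392, chromosome 2, 62500943 to 62574075, minus strand) had 10.71 and 10.92 (log2) in GSK, against 10.65 and 10.75 in DMSO, with overlapping groups and a change of 0.12 ± 0.08 (95% interval -0.07 to 0.30, limma adjusted p = 0.501). Without GSK library 2 the change was 0.01 and without GSK library 1 it was 0.22. Dpp4 (CD26), the closest relative of Fap and a marker of progenitor-like fibroblasts, had 9.39 and 9.62 in GSK and 9.98 and 9.90 in DMSO. Its change was -0.43 ± 0.08 (limma adjusted p = 0.0814), of the opposite sign to that of Fap. Of the 6 tested genes of that protease family none passed in limma. An unadjusted p under 0.05 was found for 3 of the 6, against 16.02% of all tested genes.

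Pdgfra (ENSMUSG00000029231, chromosome 5, 75152292 to 75198215, plus strand) had 13.44 and 13.34 (log2) in GSK, against 13.47 and 13.40 in DMSO. The groups overlapped, and the change was -0.04 ± 0.06 (95% interval -0.19 to 0.11, limma adjusted p = 0.778), and 0.0066 without GSK library 2. The opposite-strand genes Gm42802 and Gm42803, which share exon bases with it, were listed at 1.31 and 2.99. Whether the counting used strand is not stated, so reads of the 3 genes could not be told apart if it did not. The other receptor, Pdgfrb, used for fibroblasts and pericytes alike, had 14.13 and 14.25 in GSK and 13.78 and 13.94 in DMSO, with both GSK libraries higher (change 0.33 ± 0.08, limma adjusted p = 0.134). Pericyte genes were summed at 14.04 to 14.05 in GSK and 13.63 to 13.91 in DMSO, so their sum, like Pdgfrb, was higher in both GSK libraries, and their part in its values was not tested. Of the 7 pericyte genes 5 had positive estimates, while the potassium channel genes Kcnj8 (-0.21) and Abcc9 (-0.12) were lower in both GSK libraries. Of 6 tested ligands and receptors of this family none passed in limma. An unadjusted p under 0.05 was found for 3 of the 6, against 16.02% of all tested genes.

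Thy1 (ENSMUSG00000032011, chromosome 9, 44043384 to 44048579, plus strand) had 14.72 and 14.65 (log2) in GSK, against 14.61 and 14.59 in DMSO. The GSK pair was above the DMSO pair, by 0.08 ± 0.06 (95% interval -0.07 to 0.24, limma adjusted p = 0.570), a size exceeded by 29.6% of tested genes. It was 0.051 when GSK library 1 was left out and 0.043 after quantile normalisation. The T cell genes that could add Thy1 RNA had a summed level of 8.97 to 9.06 in GSK and 9.05 to 9.38 in DMSO, with 3 of 6 past the filter, Cd3d at 0.02 and Cd3g at -0.43. The lower sum in GSK was carried by Cd3e, at -0.30 (limma adjusted p = 0.361), and the other 2 tested T cell genes had positive estimates. Vim (ENSMUSG00000026728, chromosome 2, 13573927 to 13582826, plus strand) had 16.17 and 16.07 in GSK, against 16.28 and 16.19 in DMSO. The GSK libraries were the lower pair by a margin of 0.02, less than the spread between replicates, and the change was -0.11 ± 0.09 (95% interval -0.33 to 0.11, limma adjusted p = 0.592). Leaving out DMSO library 1 gave -0.066, leaving out GSK library 2 gave -0.064 and quantile normalisation gave -0.054. Of the other intermediate filament genes 3 were tested and none passed in limma. An unadjusted p under 0.05 was found for 1 of the 3, against 16.02% of all tested genes. Des (desmin) and Nes (nestin) had overlapping groups, Des with 10.29 ± 0.01 in GSK and 10.16 ± 0.18 in DMSO, and Nes with 10.65 ± 0.05 in GSK and 10.54 ± 0.22 in DMSO.

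**Figure D3:**
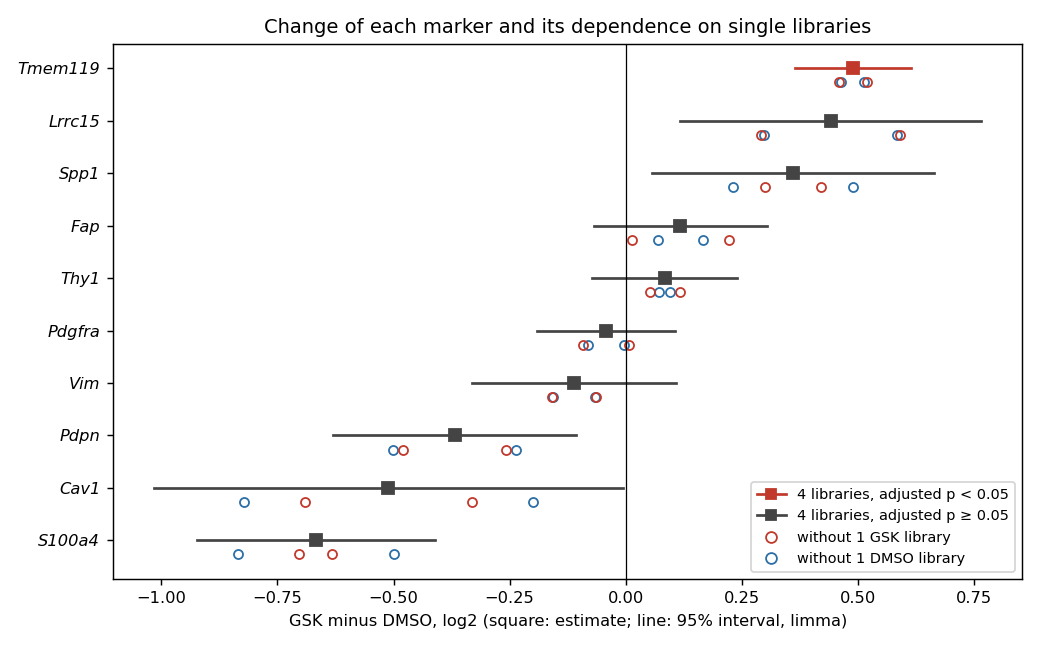
GSK minus DMSO difference (log2, x axis) of each marker, with the estimate from 4 libraries as a square, its 95% limma interval as a line, and the estimates without 1 GSK library (red circles) or 1 DMSO library (blue circles) below it. Tmem119 keeps its circles between 0.46 and 0.52, while those of Cav1 run from -0.82 to -0.20.

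**Figure D4:**
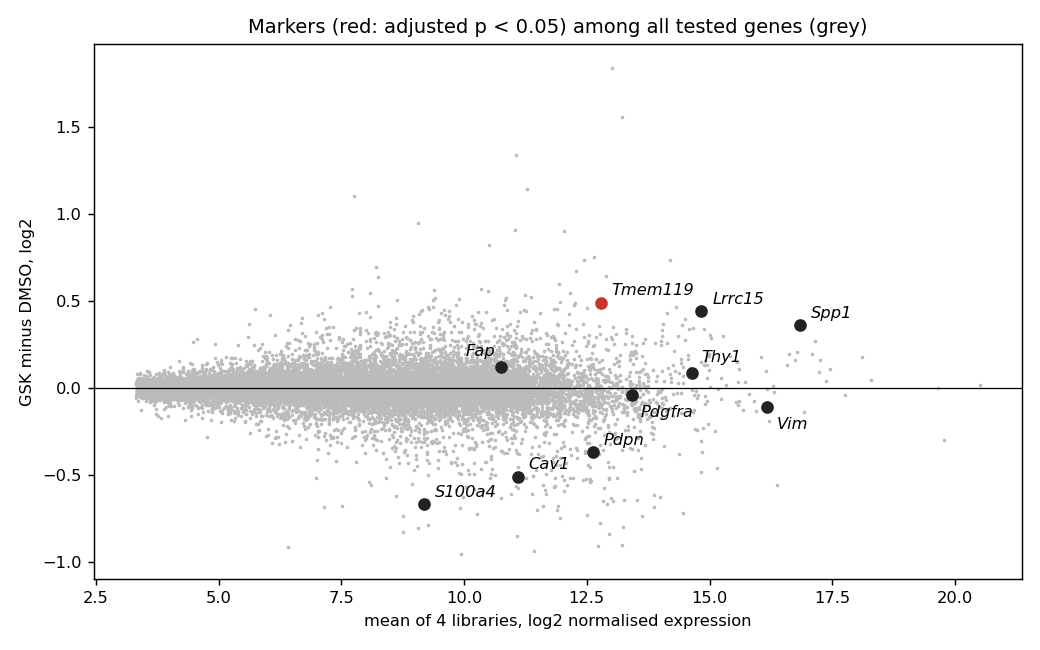
GSK minus DMSO difference (log2, y axis) against the mean of 4 libraries (log2, x axis) for the 14548 tested genes in grey and the 10 markers as labelled points, red where the adjusted p is under 0.05. S100a4 at -0.67 lies at the edge of the grey cloud, and Vim and Pdgfra lie near its centre line.

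Within a single alignment, none of the 10 shared 200 bases at 98% identity with another gene except S100a4 (Gm42674) and Pdgfra (Gm42802). Spp1 shares 309 bases of exon with Gm42793 on the same strand, but its best alignment to that gene spanned 181 bases (100% identity). Gm42793 was listed at 7.41. Summed with it the change of Spp1 was 0.36, as before, but Spp1 had a mean of 16.84, so the sum could hardly move. For Fap, Pdpn, Thy1 and Vim the best match to another gene, by identity times length, had at most 89.7% identity. Shorter matches of higher identity were not recorded. Lrrc15, Tmem119 and Cav1 had no match in this search, which kept alignments of 80% identity or more.

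The further surface markers and the inflammatory state genes were read in the same fit. Of 16 other surface markers of tumour fibroblasts none passed in limma, with 8 at an unadjusted p under 0.05 (against 16.02% of all tested genes). There were 7 positive and 9 negative estimates, with a median change of -0.01. Antxr1, an anthrax toxin receptor of stromal cells, was at 0.30 (limma adjusted p = 0.0948). Cd34, a sialomucin of resting fibroblasts and blood progenitors, had 12.24 and 11.97 in GSK and 12.66 and 12.36 in DMSO, both GSK libraries being lower (change -0.40 ± 0.12, limma adjusted p = 0.192). Of 11 tested inflammatory state genes, 1 fell, the cytokine gene Lif at -0.94 (limma adjusted p = 0.0199), where 0.131% of all tested genes fell, and none rose. Negative estimates were found in 10 of the 11, against 7349 of all 14548 tested genes, and 7 of the 11 stood at an unadjusted p under 0.05, against 16.02% of all tested genes. The median change of the list was -0.41. The related lists were written with earlier results of these data known, so these counts describe the lists and test nothing. The call of Lif was lost without DMSO library 1, where the median change of the inflammatory list was -0.33.

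**Figure D5:**
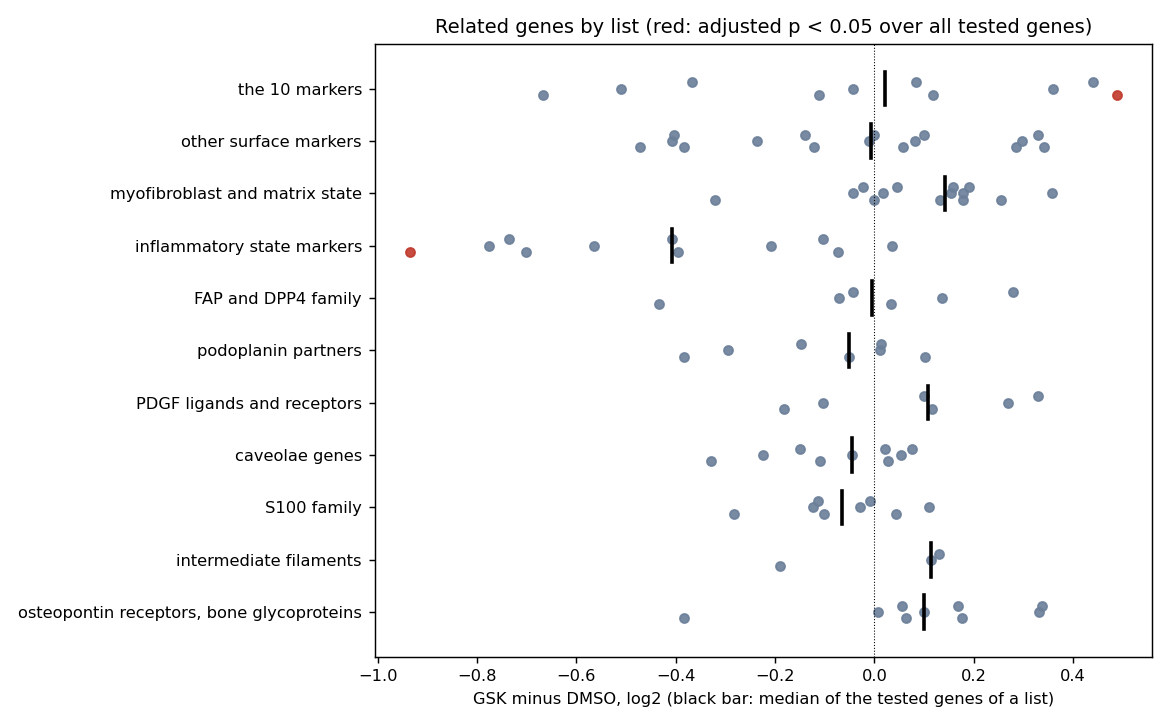
GSK minus DMSO difference (log2, x axis) of each tested gene in the marker set and in the related lists (rows), red where the adjusted p over all tested genes is under 0.05, with a black bar at the median of each list. The inflammatory state list has its median at -0.41 and the 10 markers spread on both sides of 0 with a median of 0.02.

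For the 6 markers whose values spanned at least 0.5 over the 4 libraries, the genes of most like pattern were sought among 11091 genes whose mean reached 5.64 (log2), by the root mean square difference of the 4 centred values. Closest to Tmem119 were Bpgm (0.012), Lbh (0.032) and Tmem229b (0.032), of which Bpgm and Lbh also passed the test. Both were picked for their likeness to Tmem119, so their passing is no separate evidence. Closest to S100a4 were Tnn (0.011), Uap1 (0.036) and Ptx3 (0.039), and closest to Lrrc15 were Irf7 (0.0099), Jph2 (0.031) and Spon1 (0.033). Closest to Spp1 were Ptprn (0.020), Mgp (0.035) and Etv4 (0.040), and closest to Pdpn were Loxl4 (0.021), Arc (0.026) and Cd34 (0.027). Cav1 had the fewest close genes, with 9 within 0.1 of it and Il33 (0.050), Rdh10 (0.050) and Serpinb1a (0.052) nearest. Within 0.1 lay 186 genes of Pdpn, 146 of Spp1, 87 of Tmem119, 65 of Lrrc15 and 41 of S100a4, so over only 4 libraries a close match is common. Cav1, S100a4 and Lrrc15, with the fewest genes within 0.1, also had the widest ranges over the 4 libraries. The radius was not scaled to the range of a marker, so these counts may follow the range. How rare each pattern is was not tested.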

How the data were processed

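The deposited table holds values normalised by the authors on a log2 scale, 1 column per library (2 GSK, 2 DMSO), and no sample column was left unused. RSEM 1.2.29, DESeq2 1.12.4, Bowtie2 and the builds mm10 and GRCh38 appear in the submitters' processing notes, with no roles. The transformation is not given in the sources used here. Of 22456 identifiers, 22357 matched GENCODE M21 (GRCm38).

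The test was limma 3.58.1 (R 4.3.3), applied to the deposited log2 values without a pseudocount, and covered the 14548 genes whose mean reached log2 of 10 (3.32). The model held the group only, with a variance prior that followed the mean, two-sided p-values and Benjamini-Hochberg adjustment over all tested genes at 0.05. SE means limma's moderated standard error, and SD refers to both libraries of 1 group unless 4 are named. Levels per kilobase are the log2 value minus log2 of the exon union in kilobases. A summed marker level is log2 of the sum of the unlogged values, not divided by length. Transcripts were aligned with blastn 2.17.0 at 80% identity or more, and single alignments of at least 98% identity over at least 200 bases were recorded.

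The markers and lists were chosen with earlier results of these data known. The rule for named genes took all 10 markers, list members past the threshold, a set of family members listed in the rule, the highest gene of each cell type list, and the 3 most alike genes of each variable marker. Itgb5, Antxr1, Cthrc1, Ibsp, Kcnj8, Abcc9, S100a8, S100a9 and the cell type markers given for their low values were named after their values were seen. Some genes that the rule named are not reported here, and listed genes without a value are not analysed here. Alternatives covered filters, scaling, an added pseudocount of 1, the variance prior, a replicate block and each library left out.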

Additional observations from a re-analysis of the deposited data

How the results depend on the processing

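Of 14548 tested genes 41 passed. The count was 1 with no filter, 138 with a robust prior, 11 when the prior had no trend, 23 when libraries were quantile normalised, and 7 to 194 as single libraries were left out. Over all genes, 2679 of 22456 stood at an unadjusted p under 0.05 with no filter, and 2389 of 14548 when the prior had no trend. Of the 10 markers 1 passed as reported, Tmem119. None passed in limma with no filter or without trend (5 of 10 at an unadjusted p under 0.05 in each). The count also moved as single libraries were left out, and the call of Tmem119 was lost without DMSO library 1 or GSK library 2. Over its 12 alternatives Tmem119 passed in 8, with adjusted p from 0.00044 to 0.222. Of the 83 tested genes in the related lists 1 passed as reported and 3 with a robust prior, and the count moved as single libraries were left out. With no filter 0 of 99 passed, and 30 of the 99 stood at an unadjusted p under 0.05. Pdgfra reversed without GSK library 2, in a range of -0.0911 to 0.0066 over the libraries left out, and the other 9 markers kept their sign in every alternative run. With the longest transcript as the length, levels per kilobase moved to 9.24 for Fap, 10.64 for Pdgfra, 13.85 for Thy1 and 14.63 for Vim. These shifts equal the change in log2 length, which is all that differs there, and the cause of the other moves was not tested.

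The labels give both groups replicate numbers 1 and 2 but do not say what a number shares. With the replicate number as a block, 1374 of 14548 genes passed. Among them were 5 of the 10 markers (Tmem119, S100a4, Pdpn, Lrrc15 and Cav1) and 28 of the 83 tested genes of the related lists. The replicate differences of the groups correlated at 0.43 over 14548 genes, and had the same sign in 9 of 10 markers and 60.8% of tested genes, a hint from the data and not the design. That fit leaves a single residual degree of freedom per gene. With 2 libraries a group and an unknown depth, differences of the size seen in Fap, Thy1, Vim and Pdgfra could not be told from replicate spread.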
